A study of Mus musculus with 4 samples.

Results

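The 31 genes described here encode proteins of megakaryocytes and platelets: adhesion receptors, cargo of the alpha granules, vesicle proteins of the dense granules, and receptors and enzymes for platelet agonists. They were taken by symbol from a named list, and all 31 were found among the 26286 genes of the deposited count table. The cells were LSK cells (lineage-negative, Sca-1 and Kit positive) sorted from bone marrow of C57BL/6 mice, a mixture of blood stem cells and multipotent progenitors. There were 2 groups of 2 libraries each, wild-type and labelled Hhex-deleted, without treatment or time course in the labels. The sources used here do not say how Hhex was deleted, how old the mice were or whether each library came from its own mouse. P-values therefore measure the spread between these libraries, which in wild-type may be technical. The 2 libraries labelled Hhex-deleted differed in sex-linked transcripts, given below, so they did not come from the same mouse.

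Megakaryocytes are the large polyploid cells of the bone marrow that shed platelets. Some of their genes, such as Itga2b, Pf4 and Vwf, are already transcribed in stem and early progenitor cells, and others, such as Gp6 and Tubb1, mark late maturation. On platelets the GPIb-IX-V complex holds von Willebrand factor under flow, GPVI and CLEC-2 start signalling through the kinase Syk, thrombin cleaves protease-activated receptors, and the integrin αIIbβ3 then binds fibrinogen, while granules release further agonists.

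Reads per library numbered 27871827 to 29501591. Hhex, the targeted gene, stood at 127 and 115 CPM (read counts brought to a common library size, scaled by TMM) in wild-type and at 179 and 188 CPM in the libraries labelled Hhex-deleted. Hhex itself was thus called higher with the label (log2 fold change 0.6 ± 0.09 SE, adjusted p = 0.0271 by edgeR). A gene-level count includes exons outside a deleted part, so it is no test of the deletion, and every direction given is that of the labels. Labelled Hhex-deleted replicate 1 had 2660 CPM of the female transcript Xist against 1.89 to 2.66 CPM in the other 3 libraries. Of the Y-linked transcript Ddx3y it had 0.343 CPM, against 124 to 138 CPM in the other 3. By these transcripts that library was female and the other 3 male, so sex differed within the labelled group. Values without labelled Hhex-deleted replicate 1 are given where leaving it out turned the sign of one of the 31 genes. The gate genes Kit (566 to 698 CPM) and Ly6a, which encodes Sca-1 (20.7 to 42.5 CPM), were read in every library. So was Cd34 (782 to 856 CPM), which is not part of the gate. In bulk RNA, a different number of cells of a type and a different amount of RNA per cell cannot be told apart.

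Promoter letters of the 4 genes of the GPIb-IX-V complex are shown because these genes encode the chains of 1 receptor and are compared with each other below. Each line is the 250 bases before the RefSeq start in GRCm38.p6, 5′ to 3′ on the gene's strand, with capitals for GATAA, the core bound by GATA factors, and for GGAAG, a core bound by ETS factors, on either strand.

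Gp1ba, chr11:70638872-70639121 (plus strand): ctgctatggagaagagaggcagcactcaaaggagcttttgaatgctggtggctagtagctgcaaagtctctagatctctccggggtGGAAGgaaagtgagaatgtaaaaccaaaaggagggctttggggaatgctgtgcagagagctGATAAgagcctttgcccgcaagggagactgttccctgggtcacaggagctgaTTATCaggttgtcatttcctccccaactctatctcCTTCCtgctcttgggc
Gp1bb, chr16:18622404-18622653 (minus strand): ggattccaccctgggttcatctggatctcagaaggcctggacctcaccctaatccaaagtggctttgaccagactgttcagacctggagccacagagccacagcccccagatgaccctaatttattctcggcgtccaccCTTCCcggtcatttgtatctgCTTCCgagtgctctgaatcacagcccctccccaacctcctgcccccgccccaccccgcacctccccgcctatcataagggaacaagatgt
Gp9, chr6:87777820-87778069 (plus strand): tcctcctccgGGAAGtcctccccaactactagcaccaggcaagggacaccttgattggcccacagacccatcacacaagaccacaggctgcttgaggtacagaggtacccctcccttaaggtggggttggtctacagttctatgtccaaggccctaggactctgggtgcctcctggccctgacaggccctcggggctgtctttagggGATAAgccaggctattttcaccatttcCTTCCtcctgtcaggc
Gp5, chr16:30310782-30311031 (minus strand): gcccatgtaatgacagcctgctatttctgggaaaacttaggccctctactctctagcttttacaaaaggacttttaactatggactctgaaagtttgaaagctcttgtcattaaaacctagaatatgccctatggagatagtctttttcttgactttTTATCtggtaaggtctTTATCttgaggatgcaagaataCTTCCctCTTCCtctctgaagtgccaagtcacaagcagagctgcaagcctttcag

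In these windows GATAA occurred 2 times before Gp1ba, 2 times before Gp5 and 1 time before Gp9, while the window of Gp1bb held no such match, and GGAAG occurred 2 times in each of the 4. Of the 31 genes, 24 had a promoter in the RefSeq table, and Itgb3, Vwf, Thbs1, Pdgfb, Rab27b, Rab38 and Cd226 had no entry there. GATAA was present before 10 of the 24 (41.7%, against 25.5% of 27025 genes with such a window). GGAAG was present before 19 (79.2% against 66.9%). TGTGGT, a core bound by RUNX factors, was present before 2 (8.33% against 15.9%), and TAAT, a core bound by many homeodomain proteins, before 14 (58.3% against 58.5%). All 4 motifs were searched on both strands, and in 4 of the 24 genes some of the matches shared letters. A match is a description of letters and not a binding site.

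Levels differed widely between the genes. Per length, 11 of the 31 lay above the wild-type median of all tested genes, 11.1 RPKM (the same scaled counts divided by gene length in kilobases), and 5 lay below 1 RPKM. Pf4, the chemokine platelet factor 4, was highest with 148 ± 24.2 RPKM in wild-type (SD, n = 2), above 96.6% of tested genes. Below it came the tetraspanin gene Cd9 with 79.9 ± 8.75 RPKM and Itga2b, the αIIb integrin chain, with 76.1 ± 7.07 RPKM. Plek, which encodes the protein kinase C substrate pleckstrin, stood at 69.3 ± 14.5 RPKM, the vesicle GTPase gene Rab38 at 67.4 ± 0.275 RPKM and Nrgn, a calmodulin-binding protein gene, at 61.5 ± 4.67 RPKM. From Cd9 to Rab38 each step in this order was within the SD of one of the neighbours, so their order is not resolved, while Nrgn lay below Rab38 by more than either SD. At the other end, the collagen receptor gene Gp6 had 7 and 2 reads in wild-type against 5 and 4 with the label. Cd226 (0.151 RPKM), Alox12 (0.233 RPKM), the platelet tubulin gene Tubb1 (0.46 RPKM) and Thbs1 (0.493 RPKM) were also below 1 RPKM in wild-type. Gp6 and Tubb1 (14 to 37 reads per library), genes of late maturation, were thus low. Pf4 and Itga2b, which stem and progenitor cells transcribe, lay above 96.6% and 91.8% of tested genes. Vwf, also named above as transcribed early, stood at 7.1 RPKM, above 40.3%, so levels did not follow this division throughout.

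**Figure D1:**
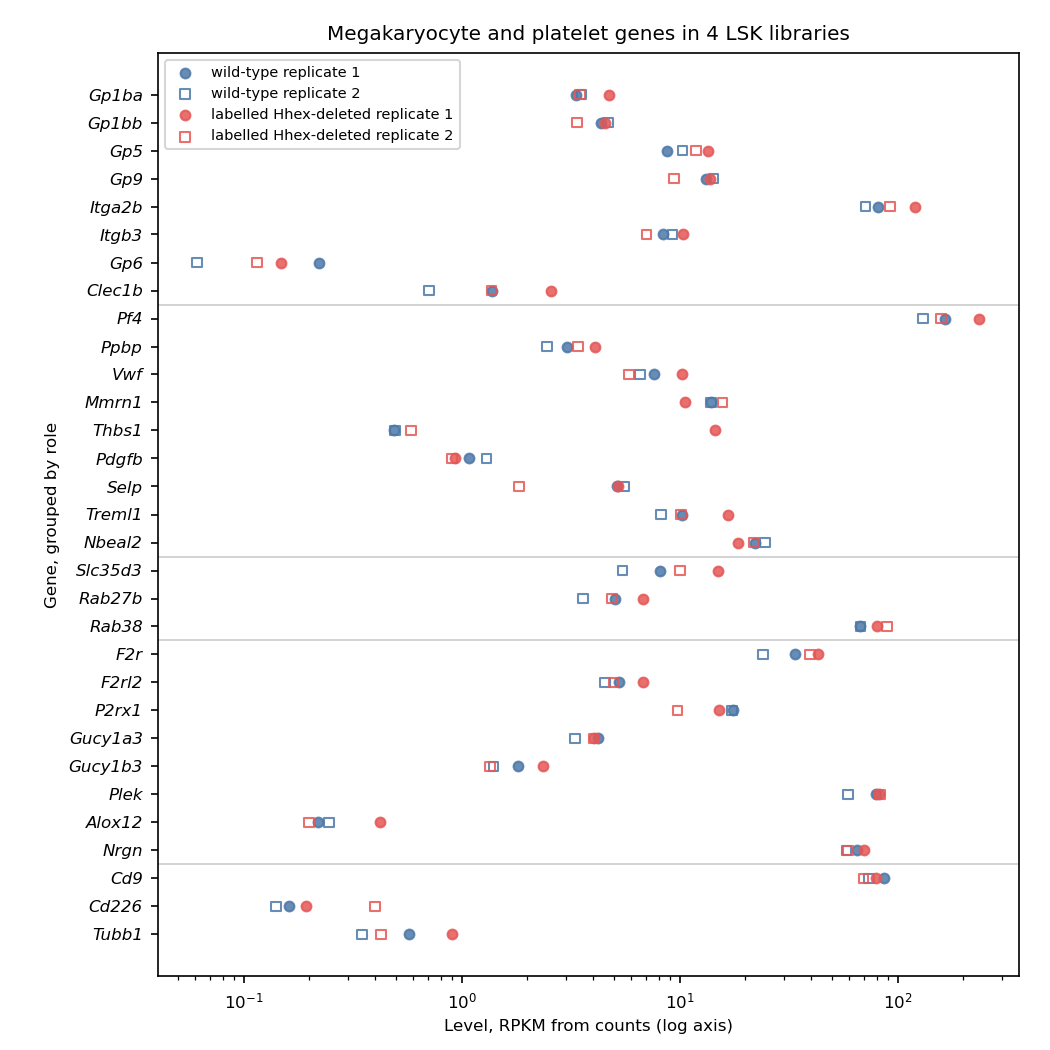
Level of each of the 31 genes in RPKM (log axis) in the 4 libraries, in blocks for adhesion receptors, alpha granules, vesicles, agonist receptors and signalling, and other genes. Filled circles are replicate 1 and open squares replicate 2 of wild-type (blue) and labelled Hhex-deleted (red); levels run from Gp6 at 0.141 RPKM to Pf4 at 148 RPKM in wild-type means.

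The comparison between groups asked whether the megakaryocyte and platelet genes moved with the label. After removal of low counts 30 of the 31 genes were tested, Gp6 being too low, and a gene near the limit can pass it through 1 group alone. By edgeR none of the 30 passed an adjusted p of 0.05 in either direction, where 1.48% of 14912 tested genes were higher and 1.12% lower. At an unadjusted p under 0.05 there were 5 higher, against 7.59% of all tested genes, and 0 lower, against 8.23%. DESeq2 called 4 of the 30 higher (background 3.31%) and 0 lower (3.32%), and limma-voom called 0 in either direction (0.825% and 0.53%). Log2 fold changes, labelled Hhex-deleted over wild-type, were positive in 21 and negative in 9 genes, with a median of 0.26 where that of all tested genes was -0.01. The signs were 17 positive and 13 negative without labelled Hhex-deleted replicate 1, and 24 positive and 6 negative without replicate 2. Both libraries labelled Hhex-deleted lay above both of wild-type in 9 genes (background 21.9%) and below both in 3 (background 23.7%).

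Among the adhesion receptors, Itga2b stood at 279 and 245 CPM in wild-type and at 413 and 318 CPM in the libraries labelled Hhex-deleted. The groups did not overlap, and the highest library was labelled Hhex-deleted replicate 1. On the log2 scale the difference was 0.48 ± 0.14 (SE), at an adjusted p of 0.177 by edgeR and of 0.0102 by DESeq2. Its partner Itgb3, the β3 chain, stood at 48.5 and 53.6 CPM against 60.4 and 40.8 CPM, with the wild-type values between the others and a log2 fold change of -0.01 ± 0.20 (SE). Per length, Itga2b exceeded Itgb3 by ratios of 9.67 and 7.67 in wild-type and of 11.5 and 13.1 in the libraries labelled Hhex-deleted.

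The 4 genes of the GPIb-IX-V complex had log2 fold changes of both signs, none of which passed, and the negative ones rest on labelled Hhex-deleted replicate 2. Without that library Gp1bb was at 0.01 and Gp9 at 0.00, and without replicate 1 they were at -0.43 and -0.54, with Gp1ba at 0.02. Gp5 stood at 19.1 and 22.6 CPM in wild-type and at 29.6 and 26.1 CPM with the label, without overlap, a log2 difference of 0.42 ± 0.13 (SE, adjusted p = 0.192 by edgeR). Gp1ba, which encodes the chain that binds von Willebrand factor, had a log2 fold change of 0.26 ± 0.20 (SE), while Gp1bb had -0.20 ± 0.20 and Gp9 -0.25 ± 0.22, and all 3 had overlapping groups. The ratio of Gp1bb to Gp9 in RPKM was 0.331 and 0.328 in wild-type and 0.33 and 0.357 with the label. The ratio of Gp1ba to Gp9 was 0.253 and 0.248 against 0.345 and 0.369, and that of Gp5 to Gp9 was 0.659 and 0.723 against 0.984 and 1.26. Within the complex, therefore, Gp1ba and Gp5 were higher relative to Gp9 in both libraries labelled Hhex-deleted, ratios picked after the values were seen and not tested. In the reference, Gp1bb overlaps Septin5, so its reads may be shared.

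Clec1b, which encodes CLEC-2, the receptor for podoplanin, stood at 1.5 and 0.77 CPM in wild-type and at 2.81 and 1.49 CPM with the label. These values rest on 22 to 82 reads per library, the groups overlapped, and the log2 fold change was 0.92 ± 0.47 (SE, adjusted p = 0.437 by edgeR). Clec1b overlaps Clec12b in the reference, and its reads may be shared too.

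Of the alpha granule genes, Thbs1, which encodes the matrix glycoprotein thrombospondin-1, had the largest fitted change and the largest spread. It had 78 and 82 reads in wild-type, 2463 reads in labelled Hhex-deleted replicate 1 and 102 reads in replicate 2. In CPM these were 2.85 and 2.87 against 84.4 and 3.38, so that 1 library stands far above the other 3. The fitted log2 fold change of 3.94 ± 2.17 (SE, adjusted p = 0.598 by edgeR) became 0.24 without labelled Hhex-deleted replicate 1. The libraries labelled Hhex-deleted differed 24.9-fold in Thbs1, a log2 ratio that only 11 of 14912 tested genes, Thbs1 included, reached in either direction.

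Selp, the gene of the adhesion receptor P-selectin, showed the opposite layout. It stood at 15.7 and 16.9 CPM in wild-type, at 15.8 CPM in labelled Hhex-deleted replicate 1 and at 5.57 CPM in replicate 2. Only the last library was low, and the log2 fold change was -0.61 ± 0.53 (SE, adjusted p = 0.713 by edgeR). Treml1, a receptor stored in alpha granules, stood at 12.6 and 9.98 CPM in wild-type and at 20.3 and 12.3 CPM with the label, with overlapping groups and a log2 fold change of 0.53 ± 0.27 (SE, adjusted p = 0.445 by edgeR). Ppbp, the precursor of the chemokine NAP-2, stood at 3.28 and 2.66 CPM against 4.42 and 3.68 CPM. Its groups did not overlap, and its log2 fold change was 0.45 ± 0.25 (SE, adjusted p = 0.481 by edgeR).

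The most abundant of these cargo genes also did not pass. Pf4 had a log2 fold change of 0.42 ± 0.24 (SE) with overlapping groups, with 97.2 and 77 CPM in wild-type and 139 and 92.8 CPM with the label, and was at 0.09 without labelled Hhex-deleted replicate 1. The von Willebrand factor gene Vwf was at 0.18 ± 0.30, Mmrn1, which encodes multimerin for the storage of factor V, at -0.08 ± 0.19, the growth factor gene Pdgfb at -0.37 ± 0.24 and Nbeal2, needed to form alpha granules, at -0.21 ± 0.11. Pdgfb and Nbeal2 were lower in both libraries labelled Hhex-deleted than in both of wild-type. Without labelled Hhex-deleted replicate 1, Vwf was at -0.28 and Mmrn1 at 0.17, the reverse of their signs with all libraries, and Treml1 was at 0.13. Of 9 alpha granule genes 5 had a positive and 4 a negative log2 fold change.

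The 3 vesicle genes all had positive log2 fold changes. Slc35d3, which encodes a nucleotide sugar transporter family member needed for dense granules, stood at 21.3 and 14.4 CPM in wild-type and at 39.4 and 26.4 CPM with the label. The groups did not overlap, and the log2 fold change of 0.88 ± 0.28 (SE) had an edgeR adjusted p of 0.22 and a DESeq2 adjusted p of 0.0145. Rab38, a GTPase in the traffic of lysosome-related organelles, stood at 106 and 107 CPM against 127 and 141 CPM. Its log2 fold change of 0.33 ± 0.08 (SE) was small but close between replicates, with the lowest edgeR adjusted p of the 30 genes, 0.11, and a DESeq2 adjusted p of 0.0227. Rab27b, a GTPase of granule docking, stood at 35.8 and 25.6 CPM against 48.4 and 34.9 CPM, with overlapping groups and a log2 fold change of 0.44 ± 0.23 (SE, adjusted p = 0.469 by edgeR).

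Among the agonist receptors, F2r, the gene of PAR1, the thrombin receptor of human but not of mouse platelets, stood at 112 and 79.9 CPM in wild-type and at 142 and 130 CPM with the label. The groups did not overlap, and the log2 fold change was 0.51 ± 0.17 (SE, adjusted p = 0.225 by edgeR, DESeq2 adjusted p = 0.0273). F2rl2, the gene of PAR3, a thrombin cofactor on mouse platelets and close to F2r on chromosome 13, was at 0.26 ± 0.19, and it overlaps Iqgap2 in the reference. P2rx1, the ATP-gated channel gene, stood at 43 and 42.5 CPM in wild-type and at 37 and 23.8 CPM with the label, lower in both libraries. Its log2 fold change was -0.49 ± 0.21 (SE, adjusted p = 0.368 by edgeR).

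None of the other signalling genes passed. Gucy1a3 and Gucy1b3, neighbours on chromosome 3 that encode the chains of the nitric oxide receptor, were at 0.11 ± 0.15 and 0.20 ± 0.32 on the log2 scale. Plek, higher in both libraries with the label, was at 0.25 ± 0.14, Nrgn at 0.07 ± 0.11 and Alox12, the platelet lipoxygenase gene, at 0.42 ± 0.46 (SE), the last on 18 to 37 reads per library. Without labelled Hhex-deleted replicate 1 the signs of Gucy1b3 (-0.26), Alox12 (-0.22) and Nrgn (-0.06) were negative, and F2rl2 was at 0.02.

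Of the remaining genes, Cd9 had a log2 fold change of -0.10 ± 0.11 (SE). Cd226, an adhesion receptor that T and natural killer cells also carry, had 11 and 10 reads in wild-type and 14 and 30 reads with the label, so that the change of 0.97 ± 0.50 (SE, adjusted p = 0.45 by edgeR) rests on few reads. Tubb1 had 22 and 14 reads against 37 and 18 reads, with overlapping groups and a log2 fold change of 0.53 ± 0.50 (SE, adjusted p = 0.73 by edgeR), which was -0.11 without labelled Hhex-deleted replicate 1.

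**Figure D2:**
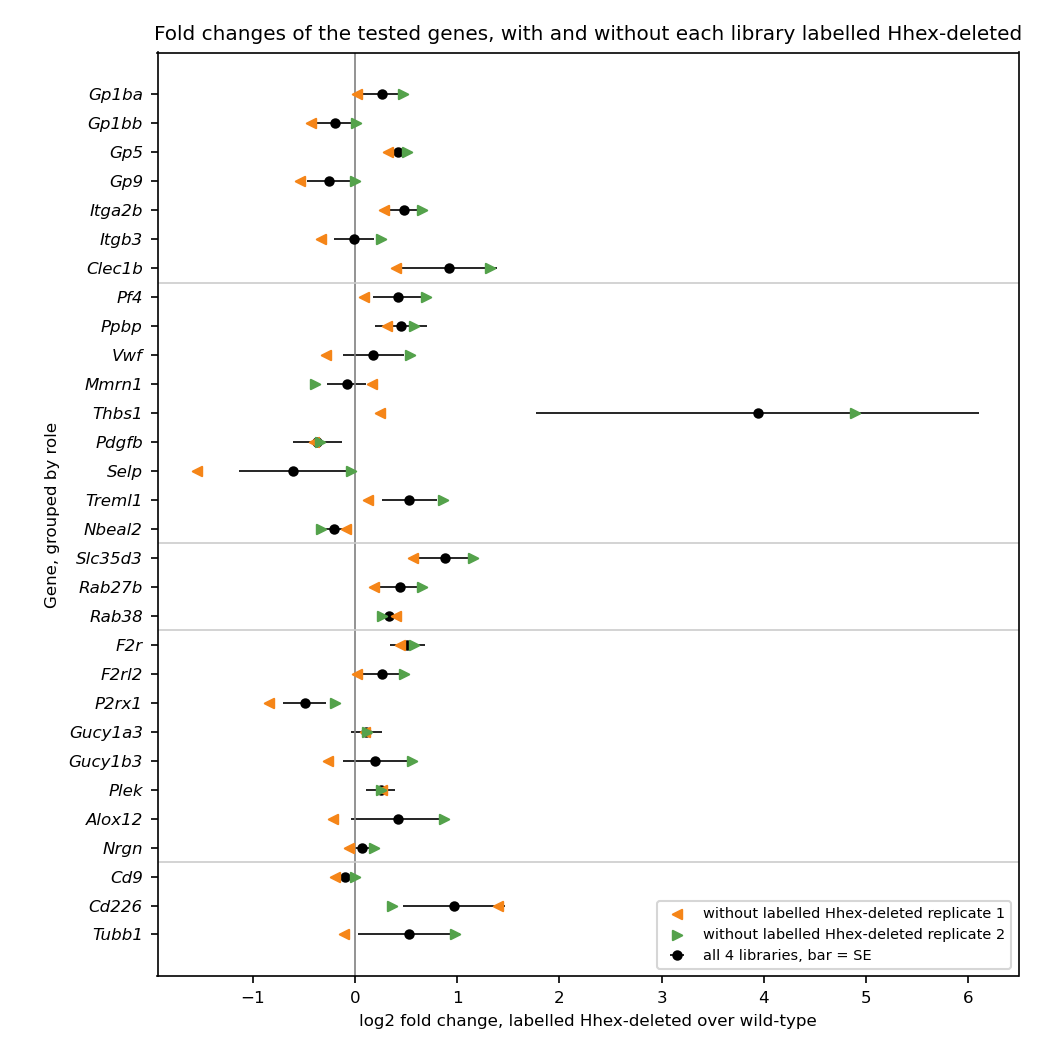
Log2 fold change of the 30 tested genes, labelled Hhex-deleted over wild-type, from all 4 libraries (black points, bars are SE) and without labelled Hhex-deleted replicate 1 (orange) or 2 (green). No black point passed an adjusted p of 0.05, and Thbs1 went from 3.94 to 0.24 without replicate 1.

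The libraries labelled Hhex-deleted differed from each other in these genes more than the wild-type libraries did. Replicate 1 was above replicate 2 in 25 of the 30 tested genes (83.3%), against 51.1% of all tested genes. Wild-type replicate 1 was likewise above wild-type replicate 2 in 19 of the 30 (63.3%, against 49.8% of all tested genes), and wild-type replicate 2 was the lowest library in 14 (46.7% against 26.1%). Labelled Hhex-deleted replicate 1 was the highest of the 4 libraries in 18 of the 30 (60%), against 22.7% of all tested genes. The median absolute log2 ratio between the libraries labelled Hhex-deleted was 0.5 for the 30 genes and 0.16 for all tested genes, and between the wild-type libraries 0.2 and 0.12. The exceptions, higher in replicate 2, were Mmrn1 (49.2 against 72.7 CPM), Nbeal2, Cd226, Rab38 and Plek. Without labelled Hhex-deleted replicate 1 the median log2 fold change of the list was 0.06, and without replicate 2 it was 0.47. Labelled Hhex-deleted replicate 1 is also the only female library by Xist and Ddx3y, and the part of sex in the difference was not tested.

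Calls moved with these libraries. Without labelled Hhex-deleted replicate 1, edgeR called 2 of the 30 genes lower, against 1.51% of all genes tested there: P2rx1 (log2 fold change -0.84, adjusted p = 0.0194) and Selp (-1.55, adjusted p = 0.0161). Without replicate 2 it called 2 higher, against 1.52%: Itga2b (0.66, adjusted p = 0.042) and Thbs1 (4.89, adjusted p = 1.6e-04). In these fits the lone library is assumed to vary like the other group.

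**Figure D3:**
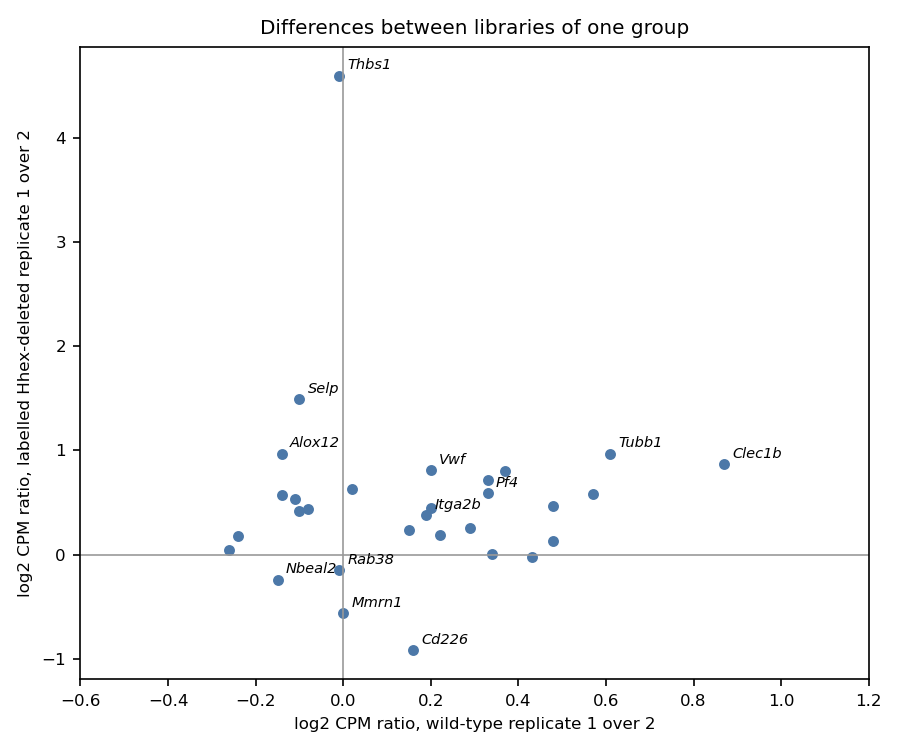
Log2 CPM ratio of replicate 1 over replicate 2 for the 30 tested genes, in wild-type (x axis) and in the libraries labelled Hhex-deleted (y axis), with each point 1 gene. Most points lie above 0 on the y axis, Thbs1 at 4.6 and Selp at 1.49, and Cd226 and Mmrn1 lie below it at -0.92 and -0.56.

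The wider megakaryocyte programme was read from lists of genes outside the 31. Over all tested genes edgeR called 1.48% higher and 1.12% lower, the background for every list below. Of 16 megakaryocyte transcription factor genes 2 rose and none fell, with a median log2 fold change of 0.08. By DESeq2 5 of the 16 were higher and 0 lower, against 3.31% and 3.32% of all tested genes, and by limma-voom 0 in either direction. Gfi1b, a zinc finger repressor that megakaryocytes and red cells need, rose from 39.7 and 34.2 CPM to 80.6 and 61.5 CPM, a log2 difference of 0.94 ± 0.15 (SE, adjusted p = 0.0421 by edgeR). Tal1, a factor shared by the same lineages and stem cells, rose from 159 CPM in both wild-type libraries to 218 and 233 CPM (0.50 ± 0.08 SE, adjusted p = 0.0339 by edgeR). Neither call held once wild-type replicate 1 (adjusted p = 0.0853 and 0.135) or 2 (0.191 and 0.184) was left out, nor that of Tal1 without labelled Hhex-deleted replicate 2 (0.0619). Gata1, the factor that drives many platelet genes, stood at 42.4 and 32.3 CPM against 76.2 and 51.6 CPM and did not pass (0.77 ± 0.24 SE, adjusted p = 0.221 by edgeR).

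Thrombopoietin is the cytokine that drives megakaryocyte growth. Of 12 tested genes of a list for its signalling, which also holds receptors of other cytokines, 1 fell and none rose, with a median of -0.15, and Thpo itself had no read in any library. The gene that fell belongs to another cytokine: Il11ra1, a receptor chain for interleukin 11, a cytokine that also acts on megakaryocytes, with 43.9 and 46.4 CPM in wild-type and 27.5 and 29.6 CPM with the label (-0.66 ± 0.09 SE, adjusted p = 0.0255 by edgeR). It did not pass once wild-type replicate 1 (adjusted p = 0.0774) or 2 (0.168) was left out.

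Downstream of the platelet receptors, 2 of 31 tested genes rose and 1 fell, with a median of -0.01. By DESeq2 4 of the 31 were higher and 2 lower, against 3.31% and 3.32% of all tested genes. Lat, the membrane adaptor of GPVI signalling that mast and T cells also use, rose from 42.5 and 38.3 CPM to 117 and 134 CPM, a log2 difference of 1.64 ± 0.10 (SE, adjusted p = 0.00407 by edgeR). Lcp2, the adaptor SLP-76 that acts with it, rose by 0.49 ± 0.07 (SE, adjusted p = 0.0302 by edgeR). Ptgs1, the cyclooxygenase gene at the head of thromboxane synthesis, fell from 65.6 and 80.9 CPM to 38 and 36.9 CPM (-0.97 ± 0.12 SE, adjusted p = 0.019 by edgeR). The call of Lat was kept whichever library was left out (adjusted p = 0.00168 to 0.00908). That of Lcp2 was lost without wild-type replicate 1 (0.149) or 2 (0.157), and that of Ptgs1 without labelled Hhex-deleted replicate 2 (0.0602).

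Of 27 tested genes of platelet granules and secretion 2 rose and none fell, with a median of -0.09. DESeq2 called 2 of them higher and 3 lower (F13a1, Srgn and Abcc4), where it called 3.31% of all tested genes higher and 3.32% lower. With all libraries 9 of the 27 log2 fold changes were positive. Without labelled Hhex-deleted replicate 1 the median was -0.11 with 6 positive, and without replicate 2 it was 0.03 with 15 positive. Slc18a2, the monoamine transporter that loads dense granules and that mast cells and basophils also express, rose from 116 and 122 CPM to 243 and 206 CPM, a log2 difference of 0.92 ± 0.10 (SE, adjusted p = 0.0159 by edgeR). Dtnbp1, a subunit of a complex in the making of lysosome-related organelles, rose by 0.50 ± 0.09 (SE, adjusted p = 0.0491 by edgeR), a call lost without labelled Hhex-deleted replicate 1 (0.0628), wild-type replicate 1 (0.197) or wild-type replicate 2 (0.241). Of 19 tested genes of cytoskeleton and endomitosis 1 rose, the tubulin gene Tuba8 (0.61 ± 0.08 SE, adjusted p = 0.0213 by edgeR), lost without wild-type replicate 1 (0.0735) or 2 (0.134). None of these 19 fell by edgeR, 2 were higher and 2 lower by DESeq2, and the median was 0.01. In alternative edgeR fits 1 of the 19 was lower with the replicate number as a block, and 1 of 20 without the low-count filter.

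Markers of other cell types were read in the same libraries. The summed level of 12 mast cell and basophil genes was 346 and 352 CPM in wild-type and 1120 and 1010 CPM with the label, and 7 of 10 tested genes rose, among them Ms4a2, Mcpt8, Cpa3 and Prss34 (log2 fold changes 2.71, 1.81, 2.26 and 1.96; edgeR adjusted p = 0.00183 to 0.0021). The protease genes Mcpt4 and Tpsb2 of connective tissue mast cells had 0 to 6 reads in each library. The calls of Cd200r3 and Fcer1a, 2 of the 7, were lost in some fits with a library left out (adjusted p up to 0.187 and 0.0501). Both were also lost with limma-voom (0.0796 and 0.0543) and with the deposited log2 RPKM values (0.0736 and 0.0693), and that of Cd200r3 with RLE size factors (0.0527). The summed level of 17 erythroid genes was 1360 and 1220 CPM against 1930 and 1660 CPM, where only the carbonic anhydrase gene Car2 rose (0.68 ± 0.12 SE, adjusted p = 0.049 by edgeR) and none fell. Its call was lost whichever library was left out (adjusted p = 0.0525 to 0.203) and with RLE size factors (0.0514). The median over the erythroid list was 0.54, with 16 of 17 log2 fold changes positive. Without labelled Hhex-deleted replicate 1 it was 0.29 with 12 of 17 positive, and without replicate 2 it was 0.97 with 13 of 17 positive. The summed level of the 31 genes themselves was 1710 and 1510 CPM against 2070 and 1740 CPM. Lat, Slc18a2 and Gfi1b are also expressed in mast cells, basophils or erythroid cells, and the part of these cells in the values was not tested.

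Of 10 gate and stem cell surface genes 1 rose, Cd48, a marker of progenitors within the gate (0.63 ± 0.09 SE, adjusted p = 0.0239 by edgeR), lost without wild-type replicate 1 (0.0652) or 2 (0.137), and none fell. The median of the 10 was 0.23 with all libraries, 0.35 without labelled Hhex-deleted replicate 1 and 0.1 without replicate 2. Endothelial cells share Vwf, Selp and Mmrn1 with megakaryocytes. Of 10 endothelial genes Egfl7 rose (0.78 ± 0.12 SE, adjusted p = 0.0366 by edgeR) and the receptor gene Tie1 fell (-0.68 ± 0.09 SE, adjusted p = 0.0227 by edgeR), both lost without wild-type replicate 1 (0.0991 and 0.0884) or 2 (0.186 and 0.0566). The endothelial cadherin gene Cdh5 was at 0.105 to 0.796 CPM, and the summed level of the endothelial list was 352 and 321 CPM against 347 and 341 CPM. With limma-voom, Gfi1b, Tal1, Dtnbp1, Car2 and Egfl7 did not pass either (adjusted p = 0.0738, 0.0543, 0.08, 0.0769 and 0.0675), nor with the deposited log2 RPKM values (0.0633, 0.0537, 0.0546, 0.0638 and 0.0688).

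**Figure D4:**
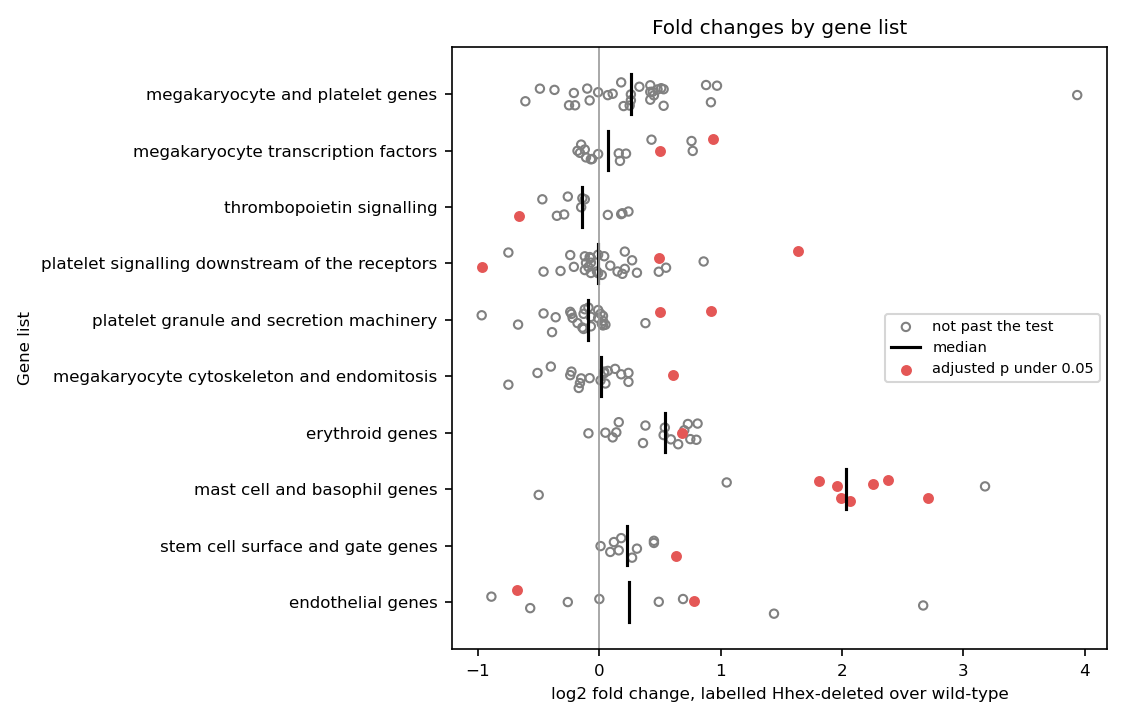
Log2 fold change of each tested gene, labelled Hhex-deleted over wild-type, by list, with the 30 tested megakaryocyte and platelet genes on top. Red points passed an edgeR adjusted p of 0.05, open points did not, and bars are list medians, which run from -0.15 for thrombopoietin signalling to 2.03 for mast cell and basophil genes.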

How the data were processed

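RNA of sorted LSK cells was made into TruSeq libraries, per the labels' protocols. The authors deposited raw read counts per Entrez gene with gene lengths, and log2 RPKM values for 12662 genes, 28 of the 31 described here. Subread, featureCounts, limma and the build mm9 are named in the submitters' processing notes. The sources used here do not give strand, multi-mapping or filters.

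Tests on the counts used edgeR 4.0.16 under R 4.3.3: filterByExpr by group (minimum count 10, minimum total 15), TMM factors, a robust quasi-likelihood fit with group as the single term, and Benjamini-Hochberg adjustment over all 14912 tested genes at 0.05. The biological coefficient of variation was 16.3%. The SE is the log2 fold change divided by the square root of F. RPKM values were computed from TMM-scaled counts and the deposited gene lengths. Read totals were 27871827 and 28584399 (wild-type) and 29501591 and 29372938 (labelled Hhex-deleted), at which 3 reads equal 0.0995 to 0.109 CPM. No pair of libraries agreed within counting noise (chi-square per degree of freedom 28.53 or more). Alternatives were RLE size factors, no filter, DESeq2 1.42.0, limma-voom (limma 3.58.1), limma on the deposited log2 RPKM values, the replicate number as a block, and each library left out. The edgeR, DESeq2 and voom scripts were tested on simulated data.

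Symbols came from the deposited tables or RefSeq (GRCm38.p6), by symbol only. Gucy1a3 and Gucy1b3 are now Gucy1a1 and Gucy1b1. Of all list entries, Hbb-b2 and Tpsab1 were not matched. The 31 genes and the lists were chosen with earlier results of these data known. Values in every library are given for the 12 largest absolute log2 fold changes, and, after their values were seen, for Gp5, Rab38, Itgb3 and Pf4. From the other lists up to 4 genes past the threshold are named. Gata1, Thpo, Cdh5, Mcpt4, Tpsb2, Cd34 and the gate genes are given as markers. Genes called only under an alternative, with Cd200r3 and Fcer1a, were named after their values were seen. One gene of these lists is not reported here by name. Promoters are from RefSeq in GRCm38.p6, a build other than the authors', and are used for letters only.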

Additional observations from a re-analysis of the deposited data

How the results depend on the processing

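Over all genes, the 221 higher and 167 lower became 493 and 495 with DESeq2, 123 and 79 with limma-voom, 114 and 65 with limma on the deposited log2 RPKM values, and 284 and 272 without a low-count filter. With 1 library left out they ranged from 84 to 366 higher and from 40 to 231 lower. Of the 30 tested megakaryocyte and platelet genes, 4 were higher with DESeq2 (Itga2b, Slc35d3, Rab38 and F2r), 0 to 2 were higher and 0 to 2 lower with 1 library left out, and none passed with RLE size factors, without the filter, with limma-voom or with the log2 RPKM values. Their median log2 fold change of 0.26 ranged from 0.06 to 0.47 with 1 library left out. Why these values moved was not tested. The signs of 19 of the 30 genes were the same in every alternative, and 13 of 298 single values changed sign, all of them with a library left out.

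The replicate numbers of the titles are shared between the groups, but nothing says that a number marks a shared source. Deviations from the group means correlated at 0.326 across genes between libraries of the same number. With the replicate block 1 of the 30 genes was higher, Slc35d3 (adjusted p = 0.035), and 185 genes were higher and 130 lower in all. Dtnbp1 (0.0629), Car2 (0.094), Cd48 (0.0502), Egfl7 (0.0688) and Fcer1a (0.0602) no longer passed with the block, which ended no other call named here. With it 4 in place of 2 of the 16 transcription factor genes passed, and 1 of the 17 erythroid genes, not Car2, was higher. The depth limits the values of Gp6, Cd226, Alox12 and Tubb1, which had at most 37 reads in any library.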
